A study of Mus musculus with 38 samples.

Results

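The genes described here were the protein-coding mouse genes named Zfp900 to Zfp999, defined by their symbols, and the gene tables held 66 of them among 78202 genes. CUT&RUN, which cuts out and sequences the DNA lying near an antibody's target, was used to ask how these genes lie relative to the nuclear periphery in mouse embryonic stem (mES) cells. An antibody against LAP2B, an inner nuclear membrane protein, was applied to 4 genotypes, each kept as naive mES cells in 2i and LIF or differentiated to epiblast-like cells (EpiLCs) with FGF and Activin A and collected at 48 h. Antibodies against LMNB1 (lamin B1) and a non-specific control (IGG) were applied to wild-type (WT) cells alone, and all told 36 libraries fell into 12 groups of 3.

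LBRKO cells lack the lamin B receptor (LBR), TKO cells lack the lamins, and QKO cells lack both. The LBRKO cells were made from the WT line and the QKO cells from the TKO line, and QKO is a single clone. The TKO line and its littermate WT line are separate lines whose karyotypes differ, with trisomy 8 in the TKO line, loss of Y in some cells of both, and trisomy 6 and 8 in a WT population. Line, clone and genotype therefore cannot be told apart. The replicates of a group are separate libraries of 1 line, so p-values here measure the spread between libraries. These data hold no transcripts, so cell type markers and the loss of the targeted proteins could not be checked. A value over many cells also does not tell whether more cells carried the contact or each carried more of it.

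Zfp genes of this number range mostly encode C2H2 zinc finger proteins, many of them with a KRAB domain. The fingers bind DNA in arrays, and the KRAB domain brings in TRIM28 and with it SETDB1, which places H3K9me3 on the bound chromatin. Such proteins are best known for silencing retrotransposons in early embryos and ES cells, and their genes arose by tandem duplication, so that many stand in clusters of close relatives. Lamina-associated domains (LADs) are long stretches of chromatin at the nuclear periphery, mostly with little transcription, which the lamins and LBR help to hold there.

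The 66 genes stood on 12 chromosomes. With a gap of at most 2 Mb between neighbours, 51 of them fell into 8 clusters and 15 stood alone. The largest were 16 genes on chromosome 4 (GRCm39 chr4:145237287-147932882), 10 on chromosome 2 (chr2:175214229-177720294) and 10 on chromosome 17 (chr17:21787117-23086292). A search of the longest annotated coding sequence of each gene for the C2H2 zinc finger motif found a median of 11 fingers. The most was 21, in Zfp974, and Zfp957 and Zfp972 had none by this search.

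Of the 66 genes, 27 (40.9%) were listed at 0 in all 36 libraries, against 11 of 316 other numbered Zfp genes (3.48%) and 747 of 21687 protein-coding genes (3.44%). They were 15 of the 16 genes of the chromosome 4 cluster, 9 of the 10 on chromosome 2, and Zfp997, Zfp998 and Zfp999 on chromosome 13. Zfp933 and Zfp931 were the only measured members of the first 2 of these clusters. The zeros took in the surroundings too: 27 of 28 other protein-coding genes within the chromosome 2 cluster and 5 of 5 within the chromosome 4 cluster were also listed at 0, against 0 of 16 on chromosome 13. Counting genes of every kind, 79 of 82 others on chromosome 2, 82 of 83 on chromosome 4 and 58 of 95 on chromosome 13 were at 0. The authors left blacklisted regions out of the gene values, so a gene listed at 0 is taken as not measured rather than as free of LAP2B.

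The sequence of these genes was highly repeated. Of all runs of 50 bases within a gene, a median of 86.6% occurred more than once in GRCm39 for the 27 genes listed at 0 (28.7% to 100%), against 10.6% for the 39 measured genes (0.658% to 87.3%). All 50-base runs were repeated in Zfp965, Zfp966, Zfp967, Zfp968 and Zfp969. Among the measured genes, over 50% were repeated in Zfp960 (87.3%) and Zfp934 (57.6%), whose reads the alignment could have shared with copies elsewhere. The part of these repeats in the zeros was not tested. What follows covers the 39 measured genes, in which the fewest reads over a gene in any library was 42, in Zfp933.

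In naive WT cells most of the measured genes carried more LAP2B than the median gene. To compare genes of different length, each value was divided by the number of 1 kb bins that the gene touches and then by the library's median gene. The median of the 39 genes was 1.56 (0.0987 to 3.39), 26 of the 39 were above 1, and 21 were in the top 25% of all genes tested. LMNB1 gave a median of 1.64 with 28 genes above 1 and again 21 in the top 25%. Protein-coding genes as a whole had medians of 0.881 for LAP2B and 0.855 for LMNB1, and the 305 other Zfp genes tested 0.861 and 0.85. In the IGG control the median of the 39 genes was 0.982.

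**Figure D1:**
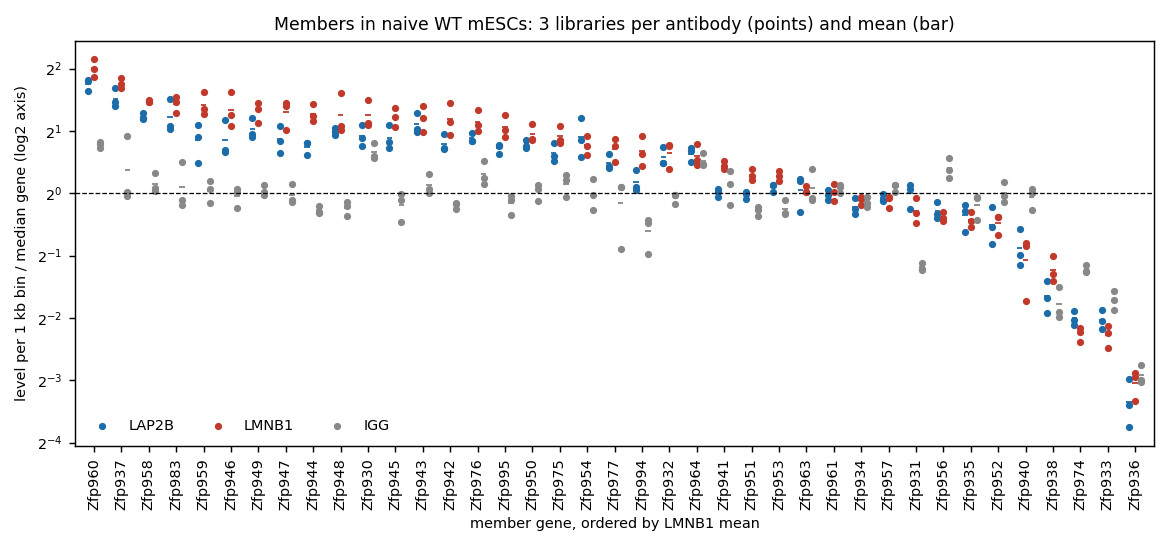
Level per 1 kb bin of the 39 measured genes in naive WT cells, divided by the library's median gene, on a log2 axis. Points are the 3 libraries of each antibody, short bars their means, and genes run from the highest to the lowest LMNB1 mean. LAP2B and LMNB1 ran together from Zfp960 at the left to Zfp936 at the right, while IGG stayed near 1 for most genes and was also low for Zfp936, Zfp933, Zfp974 and Zfp938.

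Zfp960, Zfp937 and Zfp958 were the highest. LAP2B per bin in the 3 libraries was 3.14, 3.54 and 3.48 for Zfp960, 2.77, 3.21 and 2.63 for Zfp937, and 2.3, 2.46 and 2.29 for Zfp958. LMNB1 was 4.03 ± 0.404, 3.41 ± 0.204 and 2.79 ± 0.027 (SD, n = 3) for the same genes. IGG was 1.72 ± 0.0661, 1.29 ± 0.514 and 1.11 ± 0.123, so on this scale both antibodies exceeded the control in all 3 genes.

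The lowest were Zfp974, Zfp933 and Zfp936. Their LAP2B was 0.249 ± 0.0206, 0.245 ± 0.0251 and 0.0987 ± 0.0265 (SD, n = 3), with LMNB1 of 0.209, 0.207 and 0.121. IGG was low in them as well, at 0.430, 0.305 and 0.132, and at or above LAP2B in each. Once each library was divided by its own median gene, the LAP2B mean was at or below that of IGG in 12 of the 39 genes, which also took in Zfp940 (0.543 and 0.963) and Zfp956 (0.821 and 1.32). The share over all genes was not counted. This division sets the median gene of each antibody equal, so the count does not measure signal over background. In spike-in values, which are not divided in this way and come from tables that were scaled separately, naive WT LAP2B lay above IGG in every library for Zfp974, Zfp933 and Zfp936, for example 4.56, 3.65 and 3.78 against 1.4, 0.874 and 1.33 for Zfp936. The median gene did so too, at 2.12, 2.87 and 2.37 in the LAP2B libraries against 0.579, 0.411 and 0.622 in IGG. The spike-in values therefore do not set these genes apart from a typical gene.

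Across the 39 genes, LAP2B and LMNB1 per bin ran together with a Spearman rho of 0.951 in naive cells and 0.897 in EpiLCs, and LAP2B and IGG with 0.516 and 0.487. These are descriptions across genes, which share libraries, position and the loss of repeated bins.

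Changes were measured on a pair of scales. Relative values are the deposited ones after division by the median gene of the library, so that a change is a change of a gene's place within its library. Spike-in values are those deposited, which the authors had scaled to yeast DNA added to each sample, and they also hold changes in the total. Values on these scales are sums over a gene and are compared within a gene only. The test was limma over 70382 genes, and a gene is called higher or lower at a Benjamini-Hochberg adjusted p under 0.05. The comparisons with WT at one stage share the same 3 WT libraries.

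**Figure D2:**
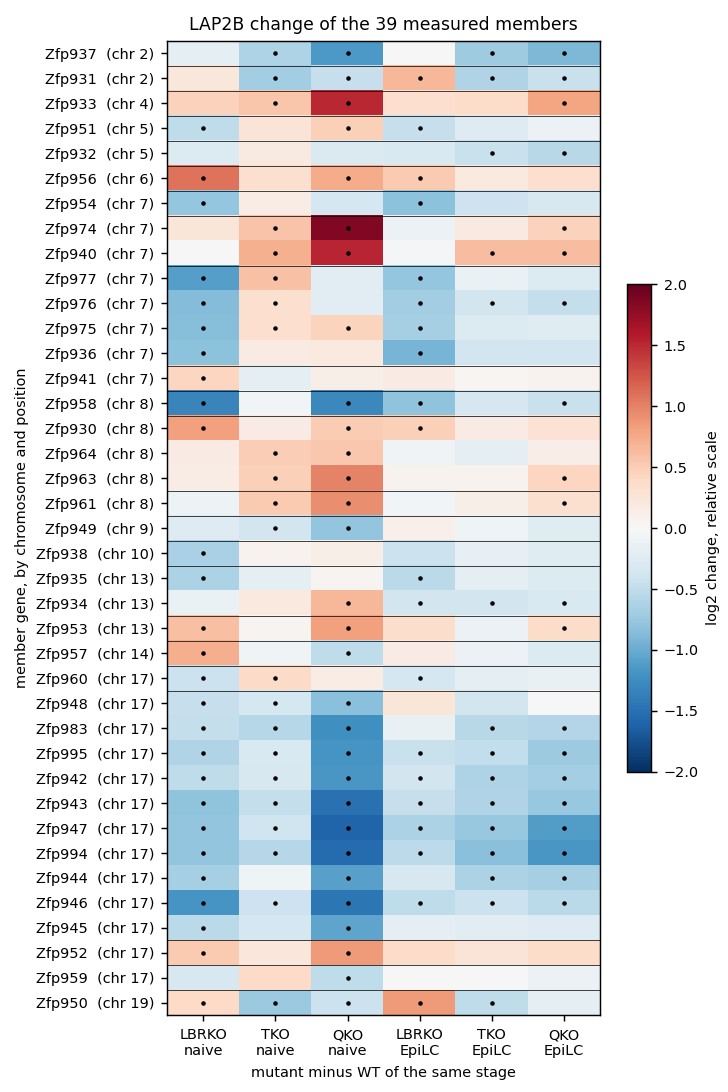
LAP2B log2 change (mutant minus WT of the same stage, relative scale) of the 39 measured genes, ordered by chromosome and position, with lines between position groups. Black dots mark an adjusted p under 0.05 with limma. The block of 10 genes on chromosome 17 was blue in all 3 naive mutants, the 4 genes Zfp977 to Zfp936 on chromosome 7 were all blue in naive LBRKO, all red in naive TKO and mixed in naive QKO, and Zfp974, Zfp940 and Zfp933 were red in QKO.

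LAP2B was lower over many of these genes in naive LBRKO cells. In LBRKO against WT, 20 of the 39 genes fell and 7 rose on the relative scale, where 27.6% of all tested genes fell and 28.9% rose. The median change was -0.43, and 0.05 over all genes. Dividing the libraries by the mean gene gave 20 lower and 9 higher, where 23.8% and 32.9% of all genes were. The median gene of the same chromosome gave 22 and 7, where 27.5% and 26.8% of all genes were. By spike-in values 8 fell and 6 rose, where 17.7% of all genes fell and 28.2% rose. Without naive LBRKO replicate 1 this became 3 and 5, and without WT replicate 2 it became 3 and 7.

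The largest fall in LBRKO was that of Zfp958 on chromosome 8. Its relative LAP2B value was 9.51, 10.3 and 9.38 in the WT libraries and 3.33, 4.26 and 3.92 in the LBRKO libraries, a change of -1.33 ± 0.136 (SE, limma adjusted p = 5.91e-12). The libraries of the groups did not overlap. Zfp946 on chromosome 17 went from 11, 15.6 and 10.7 to 5.38, 4.97 and 5.76, a change of -1.18 ± 0.136 (adjusted p = 2.01e-10, limma).

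The next falls were a pair of neighbours on chromosome 7. Zfp977 went from 4.75, 4.73 and 5.38 to 2.22, 1.90 and 2.73 (-1.095 ± 0.147, limma adjusted p = 1.10e-08). Zfp976 went from 12.9, 14.3 and 12.9 to 7.52, 7.10 and 7.23 (-0.87 ± 0.114, limma adjusted p = 6.71e-09). In both genes every LBRKO library lay under every WT library.

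Zfp956, which stands alone on chromosome 6, rose the most in LBRKO. It had 2.14, 2.48 and 2.02 in WT and 4.67, 5.67 and 4.17 in LBRKO, a change of 1.09 ± 0.152 (limma adjusted p = 2.69e-08), and no libraries overlapped. Of its 42 neighbours 25 rose and 0 fell, with a median of 0.69, and chromosome 6 as a whole had a median of 0.27. Zfp930 on chromosome 8 rose by 0.82 ± 0.13, Zfp957 on chromosome 14 by 0.73 ± 0.14 and Zfp953 on chromosome 13 by 0.60 ± 0.143 (limma adjusted p of 4.71e-07, 1.59e-05 and 0.000406).

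**Figure D3:**
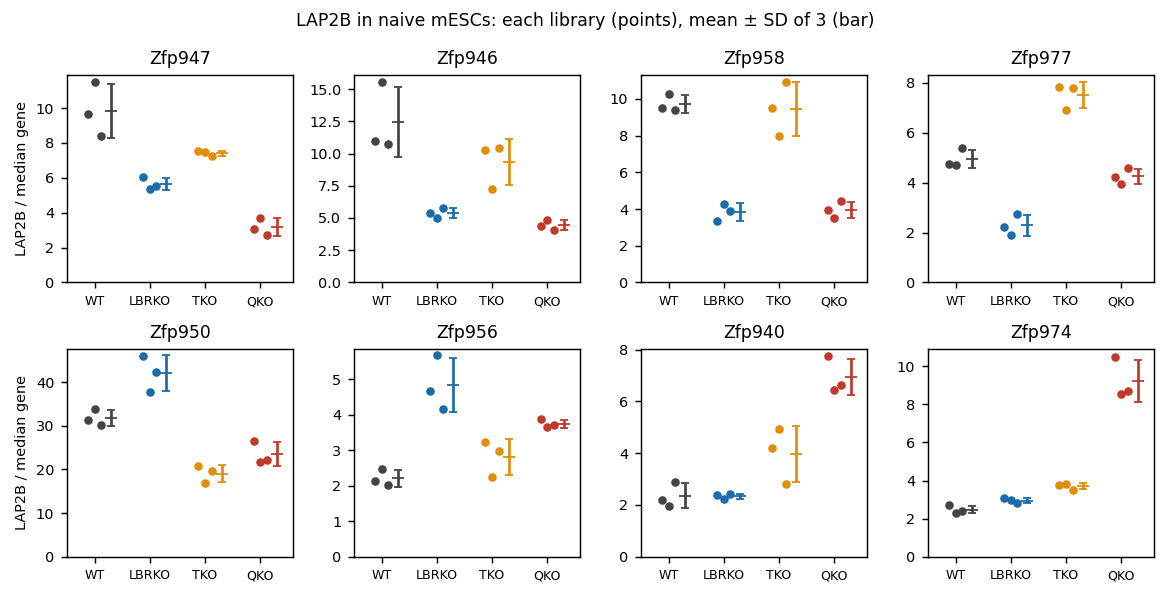
Relative LAP2B value (deposited value divided by the library's median gene) of 8 genes in naive cells, with each library as a point and mean ± SD of the 3 beside it. Zfp947 and Zfp946 were lower in LBRKO and QKO than in WT, Zfp958 fell to 3.83 and 3.95 in LBRKO and QKO and stayed at 9.46 in TKO, Zfp977 was low in LBRKO and high in TKO, and Zfp940 and Zfp974 were highest in QKO.

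In TKO cells the balance of rises and falls depended on the scaling. In naive TKO against WT, 12 of the 39 genes fell and 10 rose on the relative scale, where 27.5% of all genes fell and 21.8% rose, with a median change of 0.07 (-0.11 over all genes). Divided by the mean gene, 3 fell and 19 rose (14.7% and 33.6% of all genes), while the median of all genes moved to 0.18 and that of the 39 genes to 0.39. Divided by the median of the same chromosome, 14 fell and 8 rose (26.8% and 20.8% of all genes). By spike-in values 18 fell and 0 rose (47.4% and 2.43% of all genes), with a median of -0.54, and all genes had -0.64. No gene rose at an unadjusted limma p under 0.05 or by edgeR either.

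Zfp950 on chromosome 19 fell the most in TKO, from 31.3, 33.8 and 30.2 to 20.8, 16.9 and 19.6 (-0.74 ± 0.0991, limma adjusted p = 2.11e-08), with no overlap between libraries. Zfp931 on chromosome 2 changed by -0.70 ± 0.163, Zfp937 by -0.62 ± 0.121 and Zfp983 by -0.57 ± 0.158 (limma adjusted p of 0.000347, 3.24e-05 and 0.00236). Zfp983 had -0.25 (adjusted p = 0.181, limma) when libraries were divided by their mean.

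Among the rises, Zfp977 went from 4.75, 4.73 and 5.38 to 7.83, 6.92 and 7.79 (0.59 ± 0.147, limma adjusted p = 0.000788), and its libraries did not overlap. Zfp940 rose by 0.71 ± 0.166, although 1 TKO library, at 2.81, lay under the highest WT library, at 2.90. Zfp974 rose by 0.56 ± 0.137 and Zfp933 by 0.55 ± 0.207 (limma adjusted p of 0.000602 and 0.0241). The call of Zfp933 was lost under 4 of the alternative settings, at adjusted p of 0.0554 to 0.139 with limma.

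In naive QKO cells these genes fell and rose about as often as all genes on the relative scale. Against WT, 17 of the 39 genes (43.6%) fell and 13 (33.3%) rose on that scale, where 42.3% of all genes fell and 33.2% rose. The median was -0.21, against -0.22 for all genes. Divided by the mean gene, 13 fell and 16 rose (median 0.05, all genes 0.01), where 35.6% and 38.4% of all genes did. Divided by the median of the same chromosome this was 21 and 12, where 42.1% and 31.8% of all genes did. By spike-in values 31 fell and 1 rose, where 65.3% of all genes fell and 10.2% rose, with a median of -1.44 (all genes -1.23).

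The 4 largest falls in QKO were all in the chromosome 17 cluster. Zfp947 went from 9.68, 11.5 and 8.38 to 3.08, 3.72 and 2.71 (-1.61 ± 0.146, limma adjusted p = 2.58e-14). Zfp994 went from 6.68, 8.09 and 6.40 to 2.20, 2.72 and 2.18 (-1.54 ± 0.144, limma adjusted p = 7.56e-14). The groups did not overlap in either gene, nor in Zfp943 (-1.49 ± 0.1) and Zfp946 (-1.45 ± 0.136).

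The largest rise was that of Zfp974 on chromosome 7, from 2.69, 2.32 and 2.40 to 10.5, 8.53 and 8.68 (1.86 ± 0.137, limma adjusted p = 1.38e-17). It was also the single gene of the 39 that rose on the spike-in scale, with 5.70, 6.65 and 5.70 in WT and 11.5, 7.87 and 9.33 in QKO (0.64 ± 0.265, adjusted p = 0.0226, limma). Zfp940, its neighbour, went from 2.19, 1.98 and 2.90 to 7.73, 6.43 and 6.65 on the relative scale (1.53 ± 0.166, limma adjusted p = 7.89e-12). All QKO libraries exceeded all WT libraries in both genes.

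Zfp933, the measured gene of the chromosome 4 cluster, went from 1.19, 1.48 and 1.29 to 4.6, 3.08 and 4.31 (1.51 ± 0.207), and Zfp963 on chromosome 8 from 2.03, 2.93 and 2.81 to 5.52, 4.62 and 5.44 (0.99 ± 0.165). Their limma adjusted p was 5.94e-09 and 5.20e-07. Neither gene was higher on the spike-in scale.

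The genes that fell were mostly those with much LMNB1 in WT. All tested genes were put into 4 equal classes by naive WT LMNB1 per bin, which comes from libraries that no LAP2B comparison uses. Of the 21 genes in the top 25%, LBRKO had 16 lower and 2 higher, TKO 11 and 4, and QKO 15 and 2, with medians of -0.61, -0.32 and -1.06. All tested genes of that class had medians of -0.64, -0.63 and -1.32, and 53.8%, 53.4% and 80.6% of them were lower. Of that class 10.9%, 4.67% and 5.01% were higher, so in TKO a larger share of the members rose (19%). In the lowest 25%, 0 of 5 genes fell in QKO and 3 rose, where 8.99% and 65.6% of all genes of that class did, and the medians were 1.51 and 0.99. Other classes also went differently from all genes. Of the 7 genes in the class just under the top, 5 rose and 0 fell in QKO, with a median of 0.54, where 16.9% of that class rose and 56.5% fell, with a median of -0.68. In LBRKO 0 of the 5 genes in the lowest class rose and 2 fell, where 41.3% and 7.21% of that class did. The 2 that fell, Zfp938 and Zfp936, had naive WT LMNB1 of 0.428 and 0.121 per bin. IGG was low in them too, at 0.291 and 0.132, and the classes take no account of IGG.

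Across the 39 genes, LMNB1 level and LAP2B change had Spearman rho values of -0.383 (LBRKO), -0.436 (TKO) and -0.699 (QKO). Genes of a cluster share their surroundings and are not independent points, so these are descriptions.

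**Figure D4:**
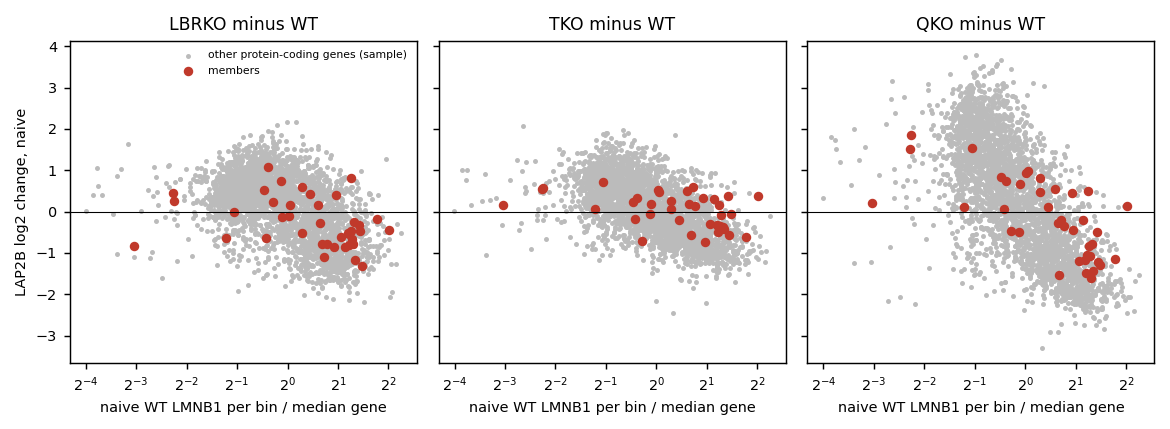
LAP2B log2 change in naive cells (relative scale) against naive WT LMNB1 per bin divided by the median gene, on a log2 axis, for the 39 measured genes (red) and a random sample of other protein-coding genes with a level above 0.05 (grey). The red points lay within the grey cloud, and in QKO most falls were at the highest LMNB1.

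The 10 members of the chromosome 17 cluster were all lower in LBRKO and QKO, and so were most of their neighbours. The 10, from Zfp948 to Zfp945 and with Zfp942 and Zfp943 overlapping each other, had naive WT levels per bin of 1.14 to 2.34 for LAP2B, 1.60 to 2.71 for LMNB1 and 0.656 to 1.1 for IGG. In LBRKO all 10 fell, by log2 changes of -0.46 to -1.18 with a median of -0.63. In QKO all 10 fell, by -0.84 to -1.61 with a median of -1.20. All 10 are in the top LMNB1 class, in which 53.8% of all tested genes fell in LBRKO and 80.6% in QKO.

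In TKO the median of this cluster was -0.37 and 8 of the 10 genes were called lower. Leaving out naive WT replicate 2 left 3 of these calls, leaving out TKO replicate 2 left 4, and leaving out TKO replicate 3 left 5. With the mean gene as divisor none was called lower (14.7% of all genes), and the cluster's median was then -0.05. By spike-in values all 10 fell in TKO and in QKO, and 4 fell in LBRKO, with medians of -0.99, -2.41 and -0.45. Of all genes 47.4%, 65.3% and 17.7% fell by spike-in values. QKO lay under TKO in all 10 genes on every scaling tried, with a median difference of -0.93 on the relative scale. In that comparison 65 of the 86 neighbours were lower and 1 was higher, with a median of -0.78, and 57.6% of all genes of the top LMNB1 class were lower.

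The fall was not limited to the 10 members. The 86 other tested genes within 500 kb of the cluster had medians of -0.68, -0.32 and -1.11 in LBRKO, TKO and QKO, close to those of the 10 members, and 56, 31 and 76 of them were lower. The top LMNB1 class over all genes had medians of -0.64, -0.63 and -1.32, and chromosome 17 as a whole 0.08, 0.21 and 0.29.

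**Figure D5:**
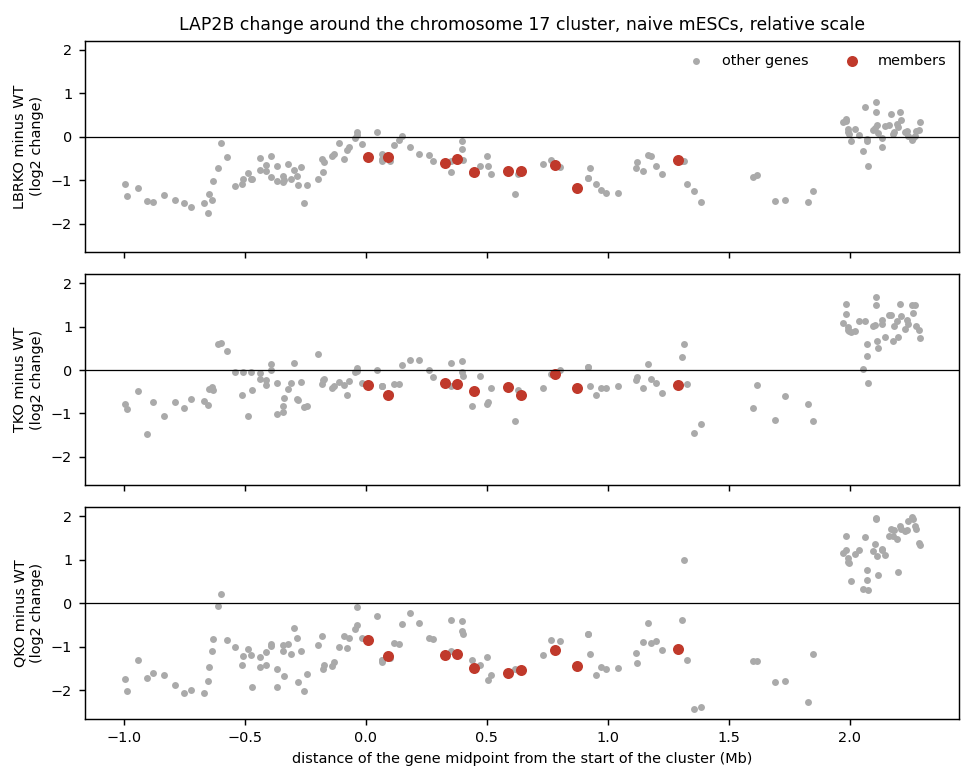
LAP2B log2 change (relative scale, naive cells) of every tested gene around the chromosome 17 cluster against the distance of its midpoint from the start of the cluster, in Mb. Red points are the 10 members and grey points other genes. Members and neighbours lay together under 0 in LBRKO and QKO and nearer 0 in TKO, and a group of genes about 2 Mb away lay mostly above 0 in all 3 panels.

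A second group, on chromosome 7 (chr7:42226953-42844955), differed between the single mutants. Zfp977, Zfp976, Zfp975 and Zfp936 all fell in LBRKO, with a median of -0.86, and all 4 were lower with the mean gene or the chromosome's median as divisor and 3 by spike-in values. In LBRKO 27.6% of all genes fell on the relative scale, 23.8% and 27.5% with these divisors, and 17.7% by spike-in values. The 74 other genes within 500 kb had a median of -0.12, and 27 of them fell and 13 rose. In TKO 3 of the 4 rose on the relative scale, with a median of 0.32, though only 1 did without any 1 of TKO replicates 1 and 3 and WT replicates 1 and 3. Of the 74 neighbours 16 rose and 4 fell in TKO, with a median of 0.20, and 21.8% of all genes rose and 27.5% fell. With the chromosome's median as divisor 1 rose in TKO, where 20.8% of all genes did. By spike-in values none was called in TKO, where 47.4% of all genes fell, and the median was -0.30. In QKO 1 rose and none fell on the relative scale, with a median of -0.01, while 26 of the neighbours rose and 14 fell, with a median of 0.12. On that scale 33.2% of all genes rose and 42.3% fell. With the chromosome's median as divisor 1 rose and 2 fell in QKO, where 31.8% and 42.1% of all genes did. By spike-in values all 4 fell (median -1.19), where 65.3% of all genes fell, with a median of -1.23. Zfp936 was no higher than IGG in WT on the relative scale per bin. In spike-in values it was above IGG, but so was the median gene, as given above.

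The direct test of LBRKO against TKO called all 4 lower in LBRKO, with a median of -1.18. Of all genes 15.9% were lower in this test, and of the 74 neighbours 21 were lower and 0 higher, with a median of -0.28. Zfp977 had the largest such difference of the 39 genes: 7.83, 6.92 and 7.79 in TKO against 2.22, 1.90 and 2.73 in LBRKO (-1.69 ± 0.147, limma adjusted p = 8.86e-14). With spike-in scaling the 4 genes had a median difference of -0.38 and 1 was called lower, where 0.722% of all genes were lower and 53.4% higher.

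On the other side of this pattern stood Zfp974 and Zfp940 (chr7:27581826-29553125), which themselves carried little LMNB1. Their per-bin LMNB1 in naive WT was 0.209 and 0.478. On the relative scale both rose in TKO and QKO and neither was called in LBRKO, where 1 was called higher with the mean gene or the chromosome's median as divisor. The shares of all genes that rose in LBRKO, TKO and QKO on the relative scale were 28.9%, 21.8% and 33.2%. By spike-in values neither was called in TKO (median 0.03) and 1 rose in QKO. The 221 other tested genes in and around this interval had medians of 0.20, 0.95 and 2.28 in LBRKO, TKO and QKO, so in TKO and QKO the neighbours' median lay above both members, while in LBRKO it lay between them.

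The promoters of the 2 genes with the largest rise and the 2 with the largest fall in QKO are given here, since these 4 genes mark the ends of the range. Each is the 250 bases of GRCm39 before the annotated gene start, written 5′ to 3′ on the gene's strand, with CG dinucleotides in capitals. Zfp974 lies at chr7:27628972-27629221, Zfp940 at chr7:29553126-29553375, Zfp947 at chr17:22385175-22385424 and Zfp994 at chr17:22444742-22444991, all on the minus strand.
Zfp974: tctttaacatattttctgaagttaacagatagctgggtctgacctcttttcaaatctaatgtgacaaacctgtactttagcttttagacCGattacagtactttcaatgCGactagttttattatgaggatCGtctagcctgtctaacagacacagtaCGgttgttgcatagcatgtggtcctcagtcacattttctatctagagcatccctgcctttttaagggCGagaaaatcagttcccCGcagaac
Zfp940: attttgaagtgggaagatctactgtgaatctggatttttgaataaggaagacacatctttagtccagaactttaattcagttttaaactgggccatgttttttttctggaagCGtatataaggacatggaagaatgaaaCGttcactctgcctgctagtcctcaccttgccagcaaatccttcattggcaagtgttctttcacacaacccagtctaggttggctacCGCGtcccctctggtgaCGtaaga
Zfp947: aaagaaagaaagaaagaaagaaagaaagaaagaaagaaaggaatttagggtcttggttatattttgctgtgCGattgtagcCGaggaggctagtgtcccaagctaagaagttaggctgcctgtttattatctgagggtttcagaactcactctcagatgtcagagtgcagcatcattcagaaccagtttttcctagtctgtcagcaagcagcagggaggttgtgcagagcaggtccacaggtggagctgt
Zfp994: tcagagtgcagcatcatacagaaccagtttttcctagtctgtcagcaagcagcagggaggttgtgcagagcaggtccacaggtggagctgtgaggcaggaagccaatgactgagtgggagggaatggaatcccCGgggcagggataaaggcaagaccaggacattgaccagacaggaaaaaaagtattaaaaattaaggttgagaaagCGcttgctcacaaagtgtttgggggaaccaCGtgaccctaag

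These promoters held 6, 5, 2 and 3 CG dinucleotides in that order, and the median of 21683 protein-coding promoters of this length was 6. The 66 genes had a median of 4 (0 to 19). TATAAA, on either strand, was found in 12.5% of protein-coding promoters and in none of the 4, and GGGCGG, on either strand, in 29.9% and in none of the 4. The Zfp947 and Zfp994 promoters shared an unbroken run of 73 bases, and of the 50-base runs in these genes 30.8% and 31.4% were repeated in the genome, so the reads of such runs cannot be placed with certainty.

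Zfp930, Zfp964 and Zfp963 stand together on chromosome 8 (chr8:69661686-70202640), the chromosome that is trisomic in the TKO line. On the relative scale all 3 rose in QKO, by 0.50, 0.54 and 0.99, where 33.2% of all genes rose. Their 57 neighbours had 41 higher and a median of 1.37, above all 3. Chromosome 8 as a whole had -0.16. In TKO Zfp964 and Zfp963 rose by 0.49 and 0.48 and Zfp930 had 0.16 (adjusted p = 0.303, limma), with medians of 0.68 for the neighbours and -0.03 for the chromosome. With the chromosome's median as divisor 1 of the 3 was called in TKO. By spike-in values none of the 3 rose in QKO and Zfp930 and Zfp964 were lower, with changes of -0.73 and -0.68 and a median of -0.68 for the 3 genes. Zfp961, further along, rose by 0.52 in TKO and 0.93 in QKO.

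Zfp958, far from this group on chromosome 8, fell in both genotypes without LBR and not in TKO. Its TKO libraries, at 9.53, 7.95 and 10.9, overlapped those of WT (-0.05 ± 0.136, adjusted p = 0.783, limma). QKO had 3.94, 3.50 and 4.41, and differed from TKO by -1.23 ± 0.136 (limma adjusted p = 6.71e-11). LBRKO differed from TKO by -1.28 ± 0.136 (limma adjusted p = 4.17e-11). The 46 neighbours of Zfp958 mostly shared this: 31 fell and 0 rose in LBRKO, 26 and 11 in QKO, and 6 and 18 in TKO. Their medians were -0.96, -0.63 and 0.10. In spike-in values the median gene had 1.26, 2.10 and 1.49 in naive TKO against 2.12, 2.87 and 2.37 in naive WT. An unchanged relative value in TKO therefore goes with a lower spike-in value, and 47.4% of all genes fell there by spike-in values.

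Over the 39 genes, QKO lay under TKO in 19 and above it in 11 in naive cells on the relative scale, where 27.1% and 26.4% of all genes did. By spike-in values this was 20 and 1, where 40.5% and 6.24% of all genes did. Zfp974 had the largest excess (1.29 ± 0.137), followed by Zfp933 (0.96 ± 0.207). Zfp947 had -1.21 ± 0.146. The limma adjusted p of these differences was 2.20e-11, 0.000101 and 7.12e-10.

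LBRKO lay under TKO in 19 genes and above it in 8, where 15.9% and 21.5% of all genes did. Divided by the mean gene this was 26 and 6 (24.9% and 14.5% of all genes), and by the chromosome's median 14 and 9 (15.6% and 19.8%). On the spike-in scale it was 1 and 15, where 0.722% and 53.4% of all genes did, so the balance turned with the scale. Zfp950 was the gene with the largest excess in LBRKO, at 46.0, 37.8 and 42.4 against 20.8, 16.9 and 19.6 in TKO (1.14 ± 0.0991, limma adjusted p = 8.27e-14). Its libraries did not overlap. Zfp931 followed with 0.93 ± 0.163 (limma adjusted p = 6.33e-06).

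From naive cells to EpiLCs, WT LAP2B fell over more of these genes than it rose. On the relative scale 17 fell and 3 rose, where 17.1% and 15.1% of all genes did, with a median of -0.24 (all genes -0.06). Of the 21 genes in the top LMNB1 class 16 fell, where 42.4% of all genes of that class did. With the mean gene as divisor 9 fell and 5 rose, where 7.49% and 23.5% of all genes did. On the spike-in scale 0 fell and 1 rose, where 1.74% and 10.4% of all genes did, so no fall was called there and the counts depend on the scale. The study did not use LAP2B as a stand-in for LADs in EpiLCs.

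Zfp948 had 9.42, 10 and 9.06 in naive WT and 6.70, 5.05 and 4.36 in EpiLCs (-0.83 ± 0.148, limma adjusted p = 2.13e-05). Zfp949 had 11.5, 9.68 and 9.19 and then 6.35, 5.74 and 5.57 (-0.77 ± 0.135, limma adjusted p = 1.80e-05). No libraries overlapped in either. In spike-in values they had -0.66 and -0.60 (limma adjusted p of 0.0631 and 0.0971). Zfp974 rose by 0.65 ± 0.137 and Zfp956 by 0.51 ± 0.152 (limma adjusted p of 0.000243 and 0.00798). By spike-in values Zfp956 had 0.68 and was not called (limma adjusted p = 0.0763).

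LMNB1 in the same transition was called lower over 7 genes and higher over 2, where 7.08% and 6.34% of all genes were. Zfp937 fell from 21.6, 19.3 and 18.7 to 10.5, 13.2 and 11.4 (-0.76 ± 0.133, limma adjusted p = 0.00115), and Zfp958 by -0.64 ± 0.138 (limma adjusted p = 0.00432). Zfp974 rose by 0.73 ± 0.173 and Zfp940 by 0.68 ± 0.209 (limma adjusted p of 0.00833 and 0.033). By spike-in values Zfp937 had -0.47 and Zfp958 -0.35 (limma adjusted p of 0.18 and 0.401). Zfp940 lost its call with the chromosome's median as divisor (adjusted p = 0.0565, limma) and without any 1 of 4 libraries (0.0584 to 0.165), and Zfp974 and Zfp958 lost theirs without EpiLC replicate 1 (0.0561 and 0.0607). The count of 9 was 1 without EpiLC replicate 1, 3 without EpiLC replicate 3, 5 without naive replicate 1 or 3, and 15 without naive replicate 2. In IGG 1 gene, Zfp947, was called, at -0.63 ± 0.15 (limma adjusted p = 0.0425), where 0.418% of all genes fell and 0.0725% rose. This call was lost whichever single library was left out (limma adjusted p of 0.0601 to 0.222).

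In EpiLCs more of the 39 genes were lower than higher in each mutant on the relative scale. LBRKO had 16 lower and 4 higher (10.1% and 13.3% of all genes), TKO 14 and 1 (9.94% and 8.68%) and QKO 14 and 6 (17.8% and 18.3%). The medians were -0.19, -0.26 and -0.26, and 0.01, 0.05 and 0.02 over all genes. Without EpiLC WT replicate 1 the TKO count of 15 was 9. With the mean gene as divisor QKO had 12 lower and 9 higher (14.3% and 23.5% of all genes).

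On the spike-in scale QKO EpiLCs had 32 lower and 0 higher (55.5% and 0.119% of all genes), with a median of -1.12 where all genes had -0.75. TKO had 10 and 0 (9.32% and 0.101%), a count that ran from 0 to 23 when single libraries were left out. At an unadjusted limma p under 0.05 TKO had 21 lower, and neither mutant had a higher gene at that p or by edgeR. LBRKO had 2 and 1 (3.46% and 5.54%).

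In LBRKO EpiLCs the 4 genes of the chromosome 7 group all fell again, with a median of -0.74, and 6 of 10 in the chromosome 17 cluster did, with a median of -0.41. In this comparison 10.1% of all genes fell, and 17.4% of the top LMNB1 class, which holds all 10 cluster genes. Of the 86 neighbours of the latter 24 fell (median -0.36), and of the 74 neighbours of the former 21 (median -0.24). By spike-in values 1 of 4 and 0 of 10 were called lower, with medians of -0.71 and -0.38, where 3.46% of all genes were lower. Zfp936 had 2.03, 2.83 and 1.88 in WT and 1.03, 1.27 and 1.05 in LBRKO (-0.93 ± 0.242, limma adjusted p = 0.00279), and its WT level was near that of IGG per bin on the relative scale. In spike-in values its WT level was above all IGG libraries, but so was that of the median gene. Zfp954 had -0.81 ± 0.187. Zfp950 rose from 25.7, 23.5 and 23.2 to 43.6, 45.2 and 41.4 (0.85 ± 0.0991, limma adjusted p = 2.01e-09), with no overlap, and Zfp931 by 0.67 ± 0.163. By spike-in values Zfp950 and Zfp936 were also called, and Zfp931 and Zfp954 were not.

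In TKO and QKO EpiLCs 8 of 10 genes of the chromosome 17 cluster fell, with medians of -0.58 and -0.67. In these comparisons 9.94% and 17.8% of all genes fell, and 28.0% and 43.9% of the top LMNB1 class, which holds all 10. The 86 neighbours of the cluster had 32 and 45 lower, with medians of -0.41 and -0.57. By spike-in values 7 and 10 of the 10 members were lower, where 9.32% and 55.5% of all genes were. Zfp994 had 6.98, 6.55 and 5.80 in WT, 3.43, 3.77 and 3.47 in TKO and 2.88, 2.88 and 2.65 in QKO. Its changes were -0.84 ± 0.144 and -1.17 ± 0.144 (limma adjusted p of 4.41e-05 and 1.04e-08). Zfp947 had -0.75 ± 0.146 and -1.12 ± 0.146, and neither mutant overlapped WT in either gene.

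On the relative scale Zfp940 rose by 0.62 ± 0.166 in both TKO and QKO EpiLCs (limma adjusted p of 0.00612 and 0.00255), and Zfp933 by 0.79 ± 0.207 in QKO (limma adjusted p = 0.00205). By spike-in values 0 of the 39 genes were called higher in either mutant, and the highest change in QKO was -0.04. Without EpiLC WT replicate 1 the call of Zfp940 in TKO had an adjusted p of 0.0669, and without replicate 3 that of Zfp933 one of 0.0757 (limma).

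The test of whether the QKO effect differed between stages called 9 genes higher in EpiLCs and 8 lower, where 24.8% and 21% of all genes were. With the mean gene as divisor this was 5 and 14 (18.9% and 23.9% of all genes), and with the chromosome's median 14 and 8 (24.7% and 19%). On the spike-in scale it was 7 and 1, where 21.9% and 7.73% of all genes were. All 9 on the relative scale were among the 21 members of the top LMNB1 class, in which 47.3% of all tested genes were called higher. Zfp946 had -1.45 in naive cells and a difference of 0.90 ± 0.193 between the stages (limma adjusted p = 0.000123), and Zfp948 one of 0.84 ± 0.209. Zfp974 had a difference of -1.40 ± 0.194 and Zfp934 of -0.97 ± 0.144.

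Genes of the silencing machinery that works with KRAB zinc finger proteins were looked at as a list of 21, all of which were tested. In naive cells on the relative scale LBRKO had 16 higher and 0 lower, TKO 15 and 1, and QKO 17 and 2, with medians of 0.64, 0.67 and 1.55. Of all protein-coding genes 45.5%, 37.3% and 48.1% were higher and 24.1%, 27.8% and 37.1% lower. With spike-in scaling the counts were 13 and 0, 4 and 4, and 9 and 6, where 42.3%, 4% and 17.6% of protein-coding genes were higher and 14.7%, 44.9% and 58.3% lower. At an unadjusted limma p under 0.05 none fell in LBRKO on either scale. The largest rise in LBRKO was that of Mphosph8, a HUSH subunit that binds H3K9me3, from 3.50, 3.34 and 4.85 to 14.2, 8.95 and 12.9 (1.59 ± 0.155, limma adjusted p = 1.17e-12).

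Daxx, a histone H3.3 chaperone, rose the most in TKO and QKO, from 1.31, 0.727 and 0.789 in WT to 3.36, 3.58 and 3.24 and to 12.4, 8.36 and 13.3. Pphln1, another HUSH subunit, fell the most in both (-0.50 ± 0.102 and -0.68 ± 0.102). Trim28 itself, named here after its values were seen, had 6.50, 7.48 and 8.54 in the WT libraries. LBRKO gave 6.24, 7.71 and 6.37, TKO 20.6, 15.9 and 17.4, and QKO 25.2, 18.3 and 23.3. On this relative scale the TKO and QKO libraries lay above all WT libraries, and those of LBRKO did not. By spike-in values Trim28 had 0.63 in TKO (limma adjusted p = 0.0212) and 0.32 in QKO (limma adjusted p = 0.222).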

How the data were processed

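LAP2B, LMNB1 and IGG CUT&RUN values were taken from 3 deposited gene tables covering 36 libraries, with 2 H3K9me3 samples left aside. By the methods and the submitters' processing notes, the authors aligned reads to GRCm39 (mm39) with Bowtie2 2.3.5.1, filtered them with SAMtools 1.10, and computed coverage as RPKM with deepTools, multiplied by a factor from yeast spike-in reads, with blacklisted regions left out. How bins were joined to genes is not given in the sources used here. The deposited signal was read as the sum of scaled RPKM over the 1 kb bins that a gene touches, and the levels per bin rest on this reading. All 245 sets of genes within 1 shared bin had equal values (within 0.0001). That shows reading by bin, but within 1 bin a sum, a mean and a maximum are the same. Values were whole multiples of 1 step in each library (100% of them, tolerance 0.05 of a step), so whole reads were recovered. Their sums over genes were 12608484 to 41198406 for LAP2B, 29522895 to 37189077 for LMNB1 and 12028659 to 45689196 for IGG, and the median gene had 36 to 135 reads. Their number limits precision only by counting error.

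Coordinates came from GENCODE M39 on GRCm39, while the methods name an earlier GENCODE release. They were matched by gene ID for 78131 of 78202 genes. The lowest 0.1 of genes by mean was left out, 0.1 of the median value of each table was added as a pseudocount, and log2 values were fitted with limma 3.58.1 (lmFit, eBayes with trend, two-sided) in R 4.3.3, with all groups of a table in 1 fit and Benjamini-Hochberg adjustment over 70382 genes. edgeR 4.0.16 on recovered reads was an alternative, and both were tested on simulated data. A fold on the log2(value + pseudocount) scale understates changes of low genes. Groups came from the sample titles.

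Membership follows from the symbol, but this range of symbols and the gene lists were chosen with earlier results of these data known. Genes named in full were the 4 largest rises and falls among called genes in each naive comparison with WT, the 2 largest in the others, the 3 highest and lowest in WT, and the co-repressors with the largest rise and fall. Promoters and repeated 50-base runs were read from GRCm39, since the promoter table at hand is of another build, and zinc fingers were counted on coding sequences translated from the annotation. Other alternatives were the pseudocount, the filter, the divisor, protein-coding genes only, the groups in the fit, a replicate block and leaving out single libraries.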

Additional observations from a re-analysis of the deposited data

Results flagged for a closer look

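The QKO effect on LAP2B differed between naive cells and EpiLCs for 17 of the 39 measured genes, by limma's test of the difference itself on the relative scale. That is 43.6% of them, against 45.8% of all tested genes. With the mean gene as divisor 5 were higher and 14 lower in place of 9 and 8, where 18.9% and 23.9% of all genes were. The largest differences were 0.90 for Zfp946, 0.84 for Zfp948, -1.40 for Zfp974 and -0.97 for Zfp934, each EpiLC effect minus naive effect.

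These values and directions are on the relative scale. Zfp946 had 12.4 ± 2.71 (SD, n = 3) in naive WT and 4.44 ± 0.389 in naive QKO, and 9.22 ± 0.563 and 6.29 ± 0.382 in EpiLCs, so both stages fell and the naive fall was the larger. Zfp948 had 9.49 ± 0.476 and 5.29 ± 0.622 in naive cells, and 5.37 ± 1.20 and 5.28 ± 0.361 in EpiLCs, where the groups overlapped. Zfp974 had 2.47 ± 0.197 and 9.24 ± 1.1 in naive cells, and 3.93 ± 0.305 and 5.41 ± 0.191 in EpiLCs, a rise at both stages. Zfp934 had 17.9 ± 1.52 and 28.3 ± 1.68 in naive cells, a rise, and 18.7 ± 1.57 and 15.0 ± 0.573 in EpiLCs, a fall. By spike-in values Zfp974 was the only 1 of the 39 genes called higher in naive QKO, so the naive rise of Zfp934 was not called there. In QKO EpiLCs 0 of the 39 genes were called higher by spike-in values, and the highest change was -0.04.

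In the chromosome 17 cluster the difference was called for 7 of 10 genes, all with the smaller fall in EpiLCs, where 24.8% of all tested genes and 29 of 86 neighbours were called higher. The medians were 0.56 for members and 0.54 for neighbours. All 10 are in the top LMNB1 class, in which 47.3% of all genes were called higher, with a median of 0.77. With the mean gene as divisor 4 of 10 were called, where 42.7% of all genes were called in either direction. The count of 7 became 4 without naive WT replicate 2, and ran up to 9 without EpiLC WT replicate 1.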

How the results depend on the processing

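In no comparison were the deviations of same-numbered libraries correlated above 0.1 in all 3 pairs, so the numbers were not taken to pair the libraries. With the replicate number as a block, LBRKO in EpiLCs on the spike-in scale went from 3 called genes to 1 and the LMNB1 stage change from 9 to 5, and no other count moved by over 1.5 times. The LBRKO count in EpiLCs on the spike-in scale was 6 with a pseudocount of 0.5 of the median and 8 with only the groups compared in the fit, where the TKO count by limma went from 10 to 0, against 10 with edgeR. The IGG count of 1 was 0 with a pseudocount of 0.01, with the mean gene or the chromosome's median as divisor, and 2 among protein-coding genes only. On the spike-in scale, an alternative chosen after seeing the data, the stage counts were 1 for LAP2B, 2 for LMNB1 and 0 for IGG, and Zfp947 in IGG turned to 0.38 (limma adjusted p = 0.512). The cause of these shifts was not tested.

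When single libraries were left out, the counts of called genes on the relative scale ran from 25 to 28 in naive LBRKO, 15 to 20 in naive TKO, 28 to 31 in naive QKO, 17 to 20 in EpiLC LBRKO, 9 to 16 in EpiLC TKO, 16 to 17 in EpiLC QKO, 15 to 21 for the LAP2B stage change, 1 to 15 for LMNB1, 0 to 1 for IGG, 26 to 29 for QKO against TKO, 23 to 27 for LBRKO against TKO, and 12 to 20 for the stage difference of QKO. On the spike-in scale they ran from 8 to 13, 13 to 21 and 29 to 32 in naive LBRKO, TKO and QKO, and from 1 to 6, 0 to 23 and 28 to 35 in EpiLCs. The count of 26 genes above the median gene in WT was 25 to 27, and 39 when values were not divided by bins. Of 508 values of single genes under alternatives other than leaving out a library, 12 lost their call and 1 turned its sign. For mutants against WT this leaves out the spike-in scale, on which 6 of the 17 named rises and 17 of the 18 named falls were also called.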
